A study of Mus musculus with 11 samples.

Results

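The 9 genes described here are markers of mural cells, the pericytes and smooth muscle cells that wrap blood vessels. They were taken by name from the 55414 gene identifiers of the expression tables: the pericyte markers Pdgfrb, Rgs5, Kcnj8, Abcc9, Cspg4, Notch3 and Mcam, and the smooth muscle markers Myh11 and Cnn1. Each symbol matched 1 Ensembl identifier, and all 9 genes had enough reads to be tested.

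The study sequenced polyadenylated RNA from the heart apex of C57BL/6 mice. A non-irradiated control group (NR, 4 libraries) was set beside hearts irradiated focally at the apex with protons at a standard dose rate (S-PRT, 4 libraries) or at the ultra-high dose rate called FLASH (F-PRT, 3 libraries, replicates 2 to 4). Both irradiated groups received 1 dose of 40 Gy and were sampled 2 weeks later; the comparison asks how each modality acts on cardiac tissue. Age and sex are not given in the labels, nor whether controls were anaesthetised or sham-treated, and the labels do not say that each library came from a separate mouse, and every p-value therefore reflects variation among the libraries sequenced, which may be technical.

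Pericytes sit on capillaries inside the basement membrane that they share with endothelial cells, and the heart is densely supplied with them. Endothelial PDGF-B, acting on the receptor encoded by Pdgfrb, recruits and keeps them, and Notch3 is the mural cell receptor for endothelial Jagged1. Smooth muscle cells of arterioles and arteries add a contractile apparatus that includes smooth muscle myosin heavy chain (Myh11) and calponin 1 (Cnn1), whereas Kcnj8 and Abcc9 encode the pore and the regulatory subunit of the ATP-sensitive potassium channel of vascular mural cells. Several of these markers are not exclusive: Abcc9 also encodes the regulatory subunit of the cardiomyocyte channel, whose pore is Kcnj11; Mcam is also found in endothelial cells; and Pdgfrb is also found in fibroblasts. In RNA from whole tissue, fewer cells of a type and less RNA per cell cannot be told apart.

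The libraries held 20758170 to 40136578 expected counts, of which mitochondrial genes took 30.63% to 43.77% (NR), 37.08% to 43.47% (S-PRT) and 24.18% to 42.27% (F-PRT). Libraries also differed in how their counts depended on transcript length. The measure was the Spearman correlation across genes of a library's deviation in log2 CPM (counts scaled to library size) with transcript length. It was 0.338 to 0.418 for NR, −0.257 to 0.267 for S-PRT and −0.556 to −0.162 for F-PRT. Every S-PRT and F-PRT library was thus below every NR library, with long transcripts relatively low beside NR. S-PRT and F-PRT overlapped, and F-PRT reached the lowest value. Of 14556 genes tested with edgeR's quasi-likelihood test at an adjusted p under 0.05 (Benjamini-Hochberg), 127 were higher and 61 lower in S-PRT than in NR, and 1579 were higher and 1262 lower in F-PRT than in NR. When libraries were scaled by their totals alone, the pair of counts for S-PRT became 11 and 3.

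In the unirradiated apex the markers spanned a wide range of levels per length. Rgs5, a regulator of G protein signalling and a classical pericyte marker, was the highest at 70.05 ± 20.9 TPM (an abundance scaled for transcript length and depth; SD, n = 4). Abcc9 followed at 31.95 ± 5.03 TPM and Kcnj8 at 13.34 ± 4.50 TPM. These 3 levels did not overlap between libraries. Mcam, a cell adhesion molecule, was at 8.80 ± 3.90 TPM, Pdgfrb at 7.36 ± 3.03 TPM, Notch3 at 3.53 ± 1.52 TPM and Cspg4, the NG2 proteoglycan, at 2.78 ± 0.892 TPM. From Kcnj8 to Cspg4 each neighbour in this order overlapped the next. The smooth muscle markers were lowest, Myh11 at 1.43 ± 0.347 TPM and Cnn1 at 0.238 ± 0.0846 TPM, and neither overlapped its neighbour. Cnn1 rested on 5 to 77 expected counts per library, so its values are the least precise of the 9.

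**Figure D1:**
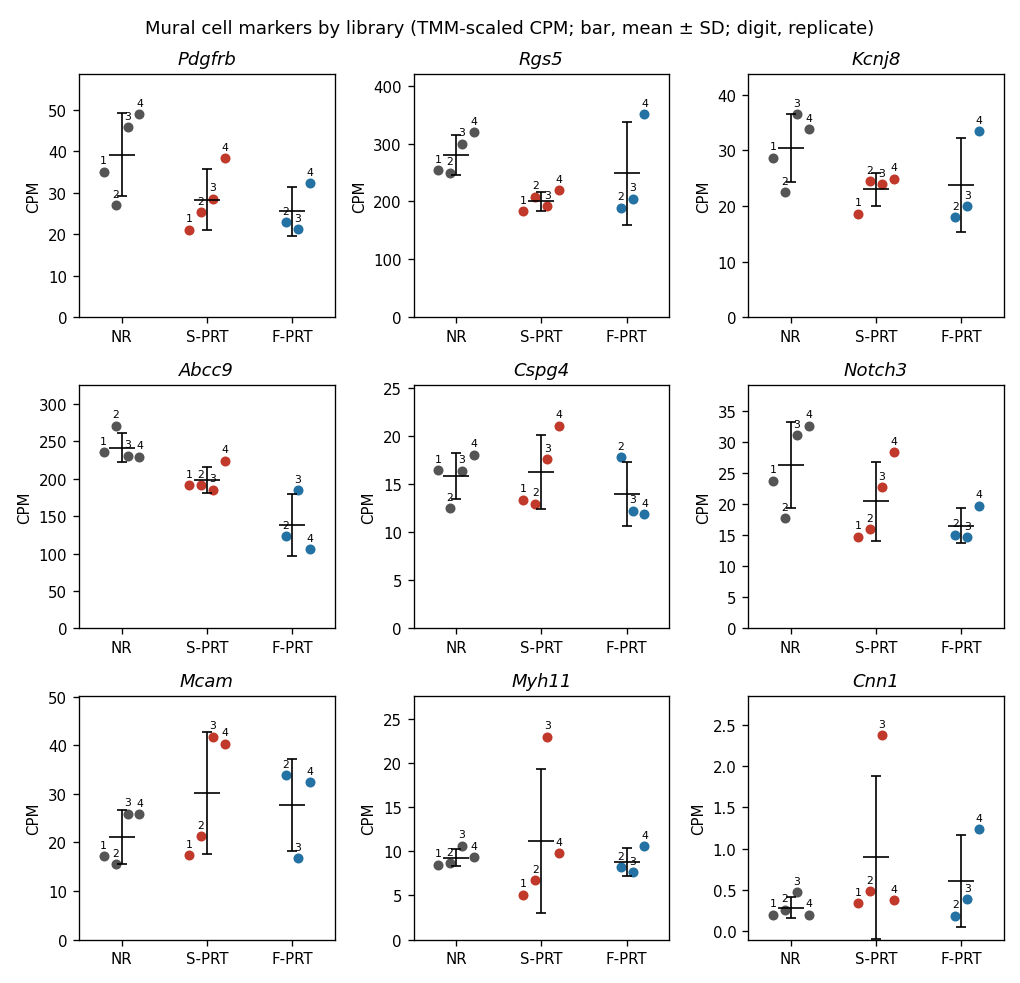
Level of each marker in each library, in CPM scaled by TMM factors on a linear axis (points, libraries, with the replicate digit above; horizontal line and bars, group mean ± SD; NR, n = 4; S-PRT, n = 4; F-PRT, n = 3). Abcc9 is lower in all 7 irradiated libraries than in all 4 NR libraries, Rgs5 of replicate 4 stands far above the other F-PRT libraries, and Myh11 and Cnn1 are highest in S-PRT replicate 3. The SD bar of Cnn1 in S-PRT reaches below 0 because 1 library is high.

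Abcc9 was the only 1 of the 9 markers that passed the unpaired test against NR in the fit over all libraries. Its level fell in F-PRT to 0.57 of the NR level, in a comparison where 19.5% of all genes were called (10.8% higher and 8.67% lower). It stood at 235.5, 271.0, 230.8 and 229.2 CPM in NR replicates 1 to 4, at 191.4, 191.5, 185.4 and 224.2 CPM in S-PRT, and at 123.3, 184.7 and 105.6 CPM in F-PRT replicates 2 to 4. In CPM, every irradiated library was below every NR library, as were those of 3.97% of all genes tested (4.95% had them all above), and every F-PRT library was below every S-PRT library, as were those of 5.16%. In TPM, Abcc9 in S-PRT replicate 4 (30.82) was above NR replicate 1 (25.17), while F-PRT (16.11 to 18.96) stayed below both other groups. On the log2 scale the fold change was −0.81 ± 0.16 (SE) in F-PRT against NR (edgeR adjusted p = 0.0098) and −0.29 ± 0.15 in S-PRT against NR (adjusted p = 0.32). With both modalities averaged against NR, Abcc9 fell by 0.55 ± 0.13 on the log2 scale (adjusted p = 0.02).

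The transcripts of Abcc9 are long, with an abundance-weighted mean of 7359.1 ± 23.1 bases in NR, and F-PRT libraries held relatively fewer counts from long transcripts. After the trend of log2 counts on transcript length was removed, the change in F-PRT was −0.47 with an adjusted p of 0.037, and the averaged change missed the threshold at −0.32 (adjusted p = 0.066). On log2(TPM + 1) with limma the F-PRT change was −0.82 with an adjusted p of 0.087, and the averaged one had an adjusted p of 0.093. Without NR replicate 1, 2 or 4 the averaged change missed the threshold, with adjusted p-values of 0.058, 0.063 and 0.05 (just above it when unrounded). An antisense gene, 5330439B14Rik, overlaps 158 bases of Abcc9 exons and held 0 to 3.01 counts.

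Kcnj8 encodes the pore that assembles with the Abcc9 product in mural cells, and the genes are neighbours on chromosome 6, on the same strand, with 0 annotated protein-coding genes between them. Its levels were 28.71, 22.54, 36.48 and 33.79 CPM in NR, 18.64, 24.44, 23.87 and 24.92 CPM in S-PRT, and 17.97, 19.91 and 33.44 CPM in F-PRT. Both irradiated groups overlapped the NR range, and F-PRT replicate 4 lay well above the other F-PRT libraries. Against NR its log2 fold change was −0.40 ± 0.19 in S-PRT (adjusted p = 0.29) and −0.35 ± 0.21 in F-PRT (adjusted p = 0.25). Without F-PRT replicate 4 the latter was −0.69 with an edgeR adjusted p of 0.037, the only call of it in 20 alternative settings. In that library Abcc9 was at its lowest while Kcnj8 and Rgs5 were at their highest of the group. It also had the lowest length correlation, −0.556 beside −0.289 and −0.162 in F-PRT replicates 2 and 3, and the lowest mitochondrial share, 24.18%. Mean transcript lengths in NR were 7359.1 bases for Abcc9, 4088.0 for Rgs5 and 2421.0 for Kcnj8. The part of transcript length in these opposite levels was not tested.

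The balance of the channel subunits was read from TPM, which divides by length but does not remove the length trend that differs between libraries. The ratio of Kcnj11, the cardiomyocyte pore, to Abcc9 was 1.41 ± 0.04 in NR (SD, n = 4), 1.61 ± 0.19 in S-PRT (n = 4) and 2.29 ± 0.22 in F-PRT (n = 3). It was 2.52, 2.08 and 2.28 in the F-PRT libraries, all above the 1.35 to 1.79 of the other 8. Abcc9, the denominator, was itself lower in F-PRT than in both other groups in TPM. How often other ratios separate in this way was not computed. The ratio of Kcnj8 to Abcc9 was 0.27 to 0.52 in NR, 0.32 to 0.42 in S-PRT and 0.37, 0.47 and 1.04 in F-PRT replicates 3, 2 and 4, so that the groups overlapped. Kcnj11 itself had a log2 fold change of −0.11 ± 0.13 in F-PRT (adjusted p = 0.57), and Abcc8, the other regulatory subunit of this channel family, one of 0.03 ± 0.12 (adjusted p = 0.88). Ryr2, the cardiac ryanodine receptor and a cardiomyocyte marker with a very long transcript, fell by 0.86 ± 0.22 in F-PRT (adjusted p = 0.022). The other 6 cardiomyocyte markers did not pass, and 4 of them had positive log2 fold changes, 0.25 for Tnnt2, 0.36 for Tnni3, 0.33 for Myl2 and 0.30 for Mb (list median 0.25). The summed level of all 7 overlapped between groups, at 46610 to 53290 CPM in NR and 48990 to 55360 CPM in F-PRT. The part of cardiomyocyte RNA in the change of Abcc9 was not tested.

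Promoters of the channel pair are shown because these neighbours encode subunits of 1 channel, and that of Mcam because its mean level was higher after irradiation. RefSeq sequences (GRCm38.p6, 250 bases before to 50 after the start, on the gene's strand) were held for Rgs5, Kcnj8, Abcc9, Cspg4, Notch3, Mcam and Cnn1. Capitals mark TGGGAA, the core of the sequence bound by the Notch effector RBPJ, in Abcc9 (chr6:142702225-142702524, minus strand) and Kcnj8 (chr6:142571565-142571864, minus strand), and TGACGTCA, the cyclic AMP response element, in Mcam (chr9:44134408-44134707, plus strand).
Abcc9: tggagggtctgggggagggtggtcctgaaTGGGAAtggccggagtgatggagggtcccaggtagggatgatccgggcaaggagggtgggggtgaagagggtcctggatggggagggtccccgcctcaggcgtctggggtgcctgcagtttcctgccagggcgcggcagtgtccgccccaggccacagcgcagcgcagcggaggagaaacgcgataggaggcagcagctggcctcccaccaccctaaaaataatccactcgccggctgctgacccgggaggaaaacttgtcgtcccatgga
Kcnj8: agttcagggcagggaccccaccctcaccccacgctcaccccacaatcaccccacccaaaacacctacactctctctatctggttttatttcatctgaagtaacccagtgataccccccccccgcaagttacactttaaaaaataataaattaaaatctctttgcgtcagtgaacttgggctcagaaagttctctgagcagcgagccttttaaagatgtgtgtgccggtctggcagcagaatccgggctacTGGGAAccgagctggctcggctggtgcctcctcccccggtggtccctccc
Mcam: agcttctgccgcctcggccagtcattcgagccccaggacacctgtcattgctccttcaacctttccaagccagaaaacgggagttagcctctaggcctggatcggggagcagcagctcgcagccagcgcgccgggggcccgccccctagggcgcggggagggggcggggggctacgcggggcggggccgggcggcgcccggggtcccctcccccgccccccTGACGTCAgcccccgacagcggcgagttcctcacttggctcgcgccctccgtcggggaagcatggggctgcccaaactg
TGGGAA on either strand occurred in 2 of the 7 promoters, Kcnj8 and Abcc9, and in 25.6% of 32851 RefSeq promoters. TGACGTCA, which reads the same on both strands, occurred in 1 of the 7, Mcam, and in 1.79% of all. The CArG box, bound by serum response factor, occurred in 1.63% of all and in 0 of the 7, Cnn1 included. The GC content was 65.7% for Abcc9, 53.3% for Kcnj8 and 72.7% for Mcam. These matches describe the letters of each window only.

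Rgs5, Pdgfrb and Notch3 had lower mean levels in S-PRT than in NR. None of the 9 markers passed the unpaired test in the fit over all 11 libraries. In that comparison 1.29% of all genes were called (0.872% higher and 0.419% lower). An unadjusted p under 0.05 was reached by 3 markers and by 18.3% of all genes. DESeq2 and limma on TPM called 0 markers each, and 697 and 2 of the 14556 genes. Other unpaired fits called some: Rgs5 when only NR and S-PRT were fitted (edgeR adjusted p = 0.025) or without F-PRT replicate 4 (0.023), and Pdgfrb and Notch3 with 1 surrogate variable (0.038 each). Replicate numbers were also taken to pair the NR and S-PRT libraries, which is an assumption. Same-numbered libraries deviated together in 4 of 4 pairs, with correlations of 0.184 to 0.363. Some libraries of different numbers did so more strongly, up to 0.443 for NR replicate 2 with S-PRT replicate 1. All values with the block rest on this assumption. With the replicate number as a block, edgeR called 9.8% of all genes (6.57% higher and 3.22% lower) and 4 of the 9 markers, with Pdgfrb, Rgs5 and Notch3 lower and Mcam higher. Unpaired and without the length trend, 0 of the pericyte markers were called in S-PRT, where 44 of all genes were. Removal of that trend was not combined with the block.

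Rgs5 was at 254.3, 249.8, 299.9 and 320.0 CPM in NR replicates 1 to 4, at 182.8, 208.5, 191.5 and 219.1 CPM in S-PRT, and at 189.6, 205.0 and 350.7 CPM in F-PRT replicates 2 to 4. In CPM, all S-PRT libraries were below all NR libraries, as were those of 6.71% of all genes, and the same held for Abcc9 alone among the other 8 markers. In F-PRT, replicates 2 and 3 were below all NR libraries and replicate 4 was above all of them, again in CPM. In TPM, Rgs5 was higher in S-PRT replicate 4 (55.74) and F-PRT replicate 2 (50.27) than in NR replicate 1 (50.18). Its log2 fold change was −0.49 ± 0.17 in S-PRT (edgeR adjusted p = 0.16, and 0.0058 with the block at −0.48) and −0.18 ± 0.18 in F-PRT (adjusted p = 0.51). Without F-PRT replicate 4 the latter was −0.51 with an edgeR adjusted p of 0.026, the only call of it in 20 alternative settings.

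Pdgfrb, the PDGF-B receptor, was at 35.10, 26.95, 45.72 and 48.88 CPM in NR, 21.08, 25.26, 28.58 and 38.26 CPM in S-PRT, and 22.91, 21.24 and 32.32 CPM in F-PRT. The groups overlapped, with NR replicates 1 and 2 below S-PRT replicate 4. Within each NR and S-PRT pair the difference on the log2 scale was −0.73, −0.09, −0.68 and −0.35, negative in 4 of 4. Against NR the log2 fold change was −0.47 ± 0.21 in S-PRT (edgeR adjusted p = 0.27, and 0.024 with the block) and −0.62 ± 0.23 in F-PRT (adjusted p = 0.077). The F-PRT value passed the threshold without NR replicate 2, at an adjusted p of 0.045, and with DESeq2, at 0.026. It was −0.32 (adjusted p = 0.47) without the length trend and −0.52 (0.44) on log2(TPM + 1) with limma.

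Notch3 was at 23.76, 17.76, 31.08 and 32.66 CPM in NR, 14.74, 16, 22.73 and 28.33 CPM in S-PRT, and 15.08, 14.68 and 19.74 CPM in F-PRT. The groups again overlapped, with NR replicates 1 and 2 inside the irradiated range, and replicates 3 and 4 were the highest of both NR and S-PRT. The 4 paired differences were −0.69, −0.15, −0.45 and −0.20. The log2 fold change was −0.36 ± 0.22 in S-PRT (edgeR adjusted p = 0.42, and 0.04 with the block at −0.37) and −0.67 ± 0.25 in F-PRT (adjusted p = 0.07, and 0.52 at −0.31 without the length trend). The counts of Notch3 were not whole numbers in any library, so reads were shared with other annotated genes. An antisense gene, Gm17276, overlaps its exons over 488 bases and held 5.40 to 47.57 counts, and whether counting used the strand is not stated by the labels or headers.

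Mcam had the opposite direction. Its levels were 17.17, 15.44, 25.93 and 25.84 CPM in NR, 17.40, 21.24, 41.72 and 40.27 CPM in S-PRT, and 33.88, 16.74 and 32.32 CPM in F-PRT. S-PRT replicates 3 and 4 and F-PRT replicates 2 and 4 were above all NR libraries, and the other 3 irradiated libraries lay inside the NR range. Relative to NR, the log2 fold change was 0.52 ± 0.30 in S-PRT (edgeR adjusted p = 0.38) and 0.39 ± 0.32 in F-PRT (adjusted p = 0.40). With the replicate block, Mcam rose in S-PRT by 0.47 (adjusted p = 0.026), and its paired differences were 0.02, 0.46, 0.68 and 0.64. With 1 surrogate variable in place of the block the change was 0.01 (adjusted p = 0.96). Gm10687, antisense to 17 bases of Mcam exons, held 15 to 60 counts.

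**Figure D2:**
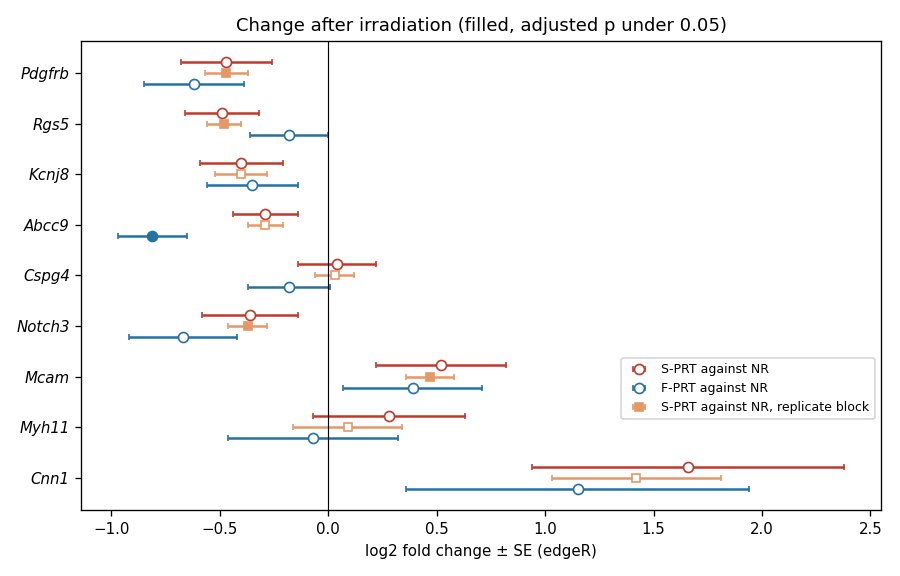
The log2 fold change of each marker against NR, with its SE, from edgeR (red circles, S-PRT; blue circles, F-PRT; orange squares, S-PRT with the replicate number as a block; filled, adjusted p under 0.05). Only Abcc9 in F-PRT is filled among the circles, and the block adds Pdgfrb, Rgs5, Notch3 and Mcam in S-PRT.

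Beside the fall of Abcc9 in F-PRT, 0 other markers of the 9 were called there. An unadjusted p under 0.05 was reached by 3 markers and by 36.1% of all genes. DESeq2 called 3 markers and 3415 of the 14556 genes, and limma on TPM called 0 markers and 71 genes. The fold change was negative for 6 of the 7 pericyte markers, with a median of −0.35 beside 0.03 over all genes tested, and in S-PRT for 5 of the 7, with a median of −0.36 beside 0.01. In F-PRT the sign of Cspg4 turned on log2(TPM + 1) and those of Cspg4 and Rgs5 turned without the length trend, so these counts depend on the scaling. For the averaged irradiated groups, where 14.6% of all genes were called (8.15% higher and 6.4% lower), again only Abcc9 of the 9 was called; 5 markers and 33.2% of all genes had an unadjusted p under 0.05, and DESeq2 called 3 markers and 2804 genes. Both irradiated groups share the NR libraries. The summed level of the 7 pericyte markers ran from 611.0 to 708.4 CPM across NR, from 459.4 to 596.2 CPM across S-PRT and from 420.5 to 586.0 CPM across F-PRT. In CPM the NR and irradiated libraries did not overlap in this sum, and Rgs5 and Abcc9 make up most of it. In TPM both genes were higher in S-PRT replicate 4 (55.74 and 30.82) than in NR replicate 1 (50.18 and 25.17), so the separation depends on the scaling. How often sums of other genes separate in this way was not computed.

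Cspg4 did not move in level by more than its spread, but its transcripts were estimated to be shorter after irradiation. Its levels were 16.44, 12.48, 16.36 and 18.03 CPM in NR, 13.37, 12.95, 17.54 and 21.06 CPM in S-PRT, and 17.78, 12.23 and 11.88 CPM in F-PRT, fully overlapping. Its log2 fold change was 0.04 ± 0.18 in S-PRT (edgeR adjusted p = 0.93) and −0.18 ± 0.19 in F-PRT (adjusted p = 0.53). The sign in F-PRT flipped to 0.19 on log2(TPM + 1) and to 0.07 without the length trend, and the sign in S-PRT to −0.09 with library totals alone.

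The abundance-weighted mean transcript length of Cspg4 was 5366.61, 6155.03, 5889.37 and 5502.93 bases in NR, 4462.25, 5077.47, 5189.34 and 5287.05 bases in S-PRT, and 4522.01, 4917.71 and 3492.52 bases in F-PRT. All NR libraries were above all irradiated ones, as was the case for 1.4% of the 12230 tested genes whose length varied between libraries, and 1.24% had all NR libraries below. Group means were 5728.5 ± 360.4 bases for NR (SD, n = 4), 5004.0 ± 371.2 for S-PRT (n = 4) and 4310.7 ± 735.7 for F-PRT (n = 3). The GENCODE M21 annotation lists 4 transcripts of Cspg4, a protein-coding one of 8121 bases and 3 with retained introns of 4976, 5158 and 3267 bases. Given these lengths, the coding transcript could make up at most 43.3% to 59.5% of Cspg4 molecules in NR, 24.6% to 41.6% in S-PRT, and 25.9%, 34.0% and 4.65% in F-PRT replicates 2 to 4. RSEM estimated these lengths from 220 to 889 expected counts per library, and short reads assign isoforms imprecisely at that depth. The length correlation of whole libraries moved in the same direction as the length of Cspg4, and its part was not tested. For the other 8 markers the lengths of NR and irradiated libraries overlapped. Notch3 was shorter in all 3 F-PRT libraries, at 4842.24 to 6255.70 bases, than in NR, at 7138.17 to 8016.0 bases. It was also short in S-PRT replicate 3, at 5087.03 bases, with 7584.3 to 8016.0 bases in the other S-PRT libraries. The share of all genes with F-PRT lengths all below NR was not computed.

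**Figure D3:**
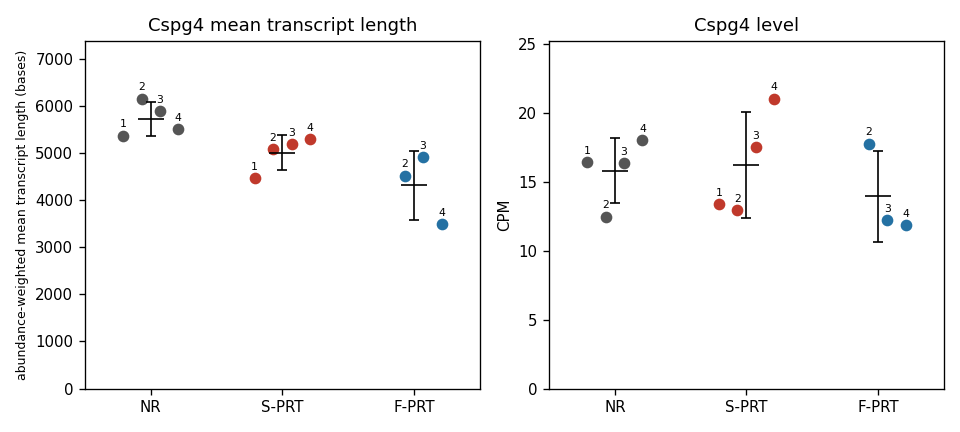
Abundance-weighted mean transcript length of Cspg4 in bases (left) and its level in CPM (right) by library (points with replicate digits; line and bars, mean ± SD; NR, n = 4; S-PRT, n = 4; F-PRT, n = 3). The length lies at 5366.61 bases or above in every NR library and at 5287.05 bases or below in every irradiated library, while the levels overlap.

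The smooth muscle markers did not pass the test in either group, and single libraries stood far above the others. Myh11 was at 8.483, 8.672, 10.64 and 9.323 CPM in NR, 5.099, 6.740, 23.01 and 9.808 CPM in S-PRT, and 8.243, 7.619 and 10.56 CPM in F-PRT. Cnn1 was at 0.201, 0.2617, 0.4741 and 0.1998 CPM in NR, 0.3428, 0.4849, 2.369 and 0.379 CPM in S-PRT, and 0.1899, 0.3893 and 1.237 CPM in F-PRT. Both were highest in S-PRT replicate 3, and Cnn1 was next highest in F-PRT replicate 4.

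Cnn1 had a log2 fold change of 1.66 ± 0.72 in S-PRT (edgeR adjusted p = 0.24) and 1.15 ± 0.79 in F-PRT (adjusted p = 0.32). Its paired differences of S-PRT from NR were 0.61, 0.75, 2.17 and 0.74, positive in 4 of 4, and with the replicate block the change was 1.42 ± 0.39 (edgeR adjusted p = 0.052). Unpaired and without S-PRT replicate 3 the change in S-PRT was 0.47, and without F-PRT replicate 4 that in F-PRT was −0.04. Myh11 had a log2 fold change of 0.28 ± 0.35 in S-PRT (adjusted p = 0.73), which became −0.35 without S-PRT replicate 3, and of −0.07 ± 0.39 in F-PRT (adjusted p = 0.92). The genes whose log2 CPM followed the pair most closely over the 11 libraries were Tagln (transgelin, Pearson r = 0.897), Myl9 (myosin regulatory light chain, r = 0.86), Gda (guanine deaminase, r = 0.842), Tpm2 (beta tropomyosin, r = 0.832) and Mylk (myosin light chain kinase, r = 0.823), the highest of 10556 genes searched, so their likeness is a description.

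Tagln reached 31.47 CPM in S-PRT replicate 3 and 25.41 CPM in F-PRT replicate 4, with 4.628 to 9.420 CPM in the other 9. Myl9 reached 14.03 and 14.56 CPM in the same libraries, with 4.585 to 7.012 CPM in the others. Counts of Tagln were whole in 1 of 11 libraries and those of Mylk in 3, so reads were shared with other annotated genes. Acta2, smooth muscle actin, chosen after its values were seen, had another pattern, with 27.62 to 46.48 CPM in NR, 74.82, 53.34, 92.75 and 37.81 CPM in S-PRT, and 44.71, 23.19 and 56.55 CPM in F-PRT. Thus in CPM S-PRT replicates 1 and 2 were above all NR libraries in Acta2 and below all of them in Myh11. In TPM, Acta2 was at 36.13 and 27.44 in these libraries, below the 38.03 of NR replicate 4.

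**Figure D4:**
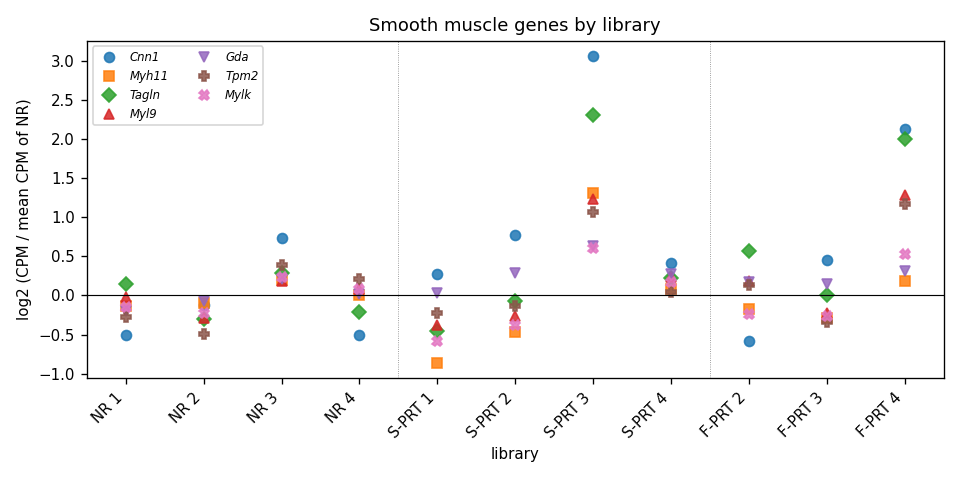
Level of Cnn1, Myh11 and the 5 genes most like them in each library, as log2 of CPM over the mean CPM of the 4 NR libraries (points, 1 per gene and library; dotted lines part the groups). S-PRT replicate 3 is high in all 7 genes and F-PRT replicate 4 is high in Cnn1, Tagln, Myl9, Tpm2 and Mylk.

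For the pericyte markers, the 5 genes with the most similar profile over the 11 libraries were Pxdn (peroxidasin, r = 0.966), Irf2 (r = 0.951), Pkd2 (polycystin 2, r = 0.949), Wasf2 (r = 0.947) and Kirrel (r = 0.946). Of these, Pkd2 and Wasf2 fell in F-PRT, by 0.43 (edgeR adjusted p = 0.039) and 0.44 (adjusted p = 0.03) on the log2 scale, where 8.67% of all genes fell. The 5 were the highest of 10556 genes searched in these same libraries, group differences included. Their likeness and their changes are therefore a description only.

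Between the dose rates, 0 of the 9 markers passed the test, and edgeR called 0.0% of all genes. An unadjusted p under 0.05 was reached by 1 marker, Abcc9, while DESeq2 and limma on TPM called 0 markers each. Over all genes, edgeR gave 2315 unadjusted p-values under 0.05, DESeq2 called 168 and limma on TPM called 9. The log2 difference of F-PRT from S-PRT was −0.52 ± 0.16 for Abcc9 (edgeR adjusted p = 0.19). Without F-PRT replicate 3 it was −0.80 with an edgeR adjusted p of 0.033, the only call of it in 20 alternative settings. The others were 0.31 ± 0.18 for Rgs5 and between −0.51 and 0.06 for the remaining 7, with adjusted p-values of 0.42 and above.

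Other genes of pericytes had a similar median, and few of them passed. Of 23 listed, all but Foxf2 were tested; in S-PRT 19 of 22 were negative, with a median of −0.39, and 0 passed, although 7 had an unadjusted p under 0.05, against 18.3% of all genes, and DESeq2 called 1. In F-PRT 17 of 22 were negative and the median was −0.39; 7 had an unadjusted p under 0.05, against 36.1% of all genes, and DESeq2 called 4. By edgeR 1 rose, where 19.5% of all genes were called: Cox4i2, a cytochrome c oxidase isoform, by 0.68 ± 0.18 (edgeR adjusted p = 0.025). Cox4i2 was at 4.074 to 4.985 CPM (NR), 5.383 to 6.829 CPM (S-PRT) and 5.617 to 10.24 CPM (F-PRT), higher in every irradiated library. In TPM its groups overlapped, with NR replicate 4 at 11.17 and S-PRT replicate 1 at 8.56. With the replicate block, where 6.57% of all genes rose and 3.22% fell, Cox4i2 rose in S-PRT and 6 of the list fell, of which 5 are named here after their values were seen. These were Rgs4 (−0.76, adjusted p = 0.0035), a regulator of G protein signalling like Rgs5, both soluble guanylate cyclase subunits Gucy1a1 (−0.62, adjusted p = 0.0075) and Gucy1b1 (−0.60, adjusted p = 0.041), Angpt1, whose product acts on the endothelial receptor Tek, (−0.51, adjusted p = 0.012) and the transcription factor Ebf1 (−0.41, adjusted p = 0.03). Counts of Angpt1 were whole in 0 of 11 libraries, so its reads were shared with other annotated genes.

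Of the 20 other contractile genes, 19 were tested (Actg2 was not). In S-PRT 0 passed (1 at an unadjusted p under 0.05, 0 with DESeq2 or the block), with a median of 0.04. In F-PRT 1 rose and 3 fell, with a median of 0.03, a number of calls near the 19.5% of all genes. Synpo2, an actin-binding protein, fell by 0.46 ± 0.12 (edgeR adjusted p = 0.022), Myocd, the coactivator of serum response factor, by 0.67 ± 0.21 (adjusted p = 0.039) and Ppp1r12b, a myosin phosphatase subunit, by 0.53 ± 0.16 (adjusted p = 0.04). Des, desmin, rose by 0.33 ± 0.10 (adjusted p = 0.04). These 4 genes are also transcribed in cardiomyocytes. Of these 4 calls and that of Cox4i2, only Des held after the length trend was removed.

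Among the other PDGF genes, Pdgfra, the fibroblast receptor, fell in F-PRT by 1.34 ± 0.25 (edgeR adjusted p = 0.0086) and Pdgfa, a ligand, rose by 0.57 ± 0.12 (adjusted p = 0.013), and Pdgfb, Pdgfc and Pdgfd did not pass. Pdgfra was at 12.34 to 27.26 CPM (NR), 11.06 to 12.83 CPM (S-PRT) and 6.562 to 11.65 CPM (F-PRT). In S-PRT 0 of the 5 passed unpaired (1 at an unadjusted p under 0.05, 1 with DESeq2), and with the block Pdgfra fell by 0.80 (adjusted p = 0.021). Of 14 other Notch genes, 3 fell in F-PRT, where 8.67% of all genes fell. The receptor Notch1 fell by 0.84 ± 0.15 (adjusted p = 0.0078), the DNA-binding effector Rbpj by 0.29 ± 0.08 (adjusted p = 0.029) and the target Heyl by 0.54 ± 0.16 (adjusted p = 0.038). Notch1 was at 20.06 to 22.27 CPM (NR), 11.36 to 18 CPM (S-PRT) and 10.45 to 12.23 CPM (F-PRT). In S-PRT 0 of the 14 passed unpaired (5 at an unadjusted p under 0.05, 2 with DESeq2), and with the block Notch1, Heyl and the endothelial ligand Dll4 fell, by 0.58, 0.49 and 0.43, and the target Nrarp rose by 0.61 (adjusted p-values 0.0094, 0.015, 0.023 and 0.0052). After the length trend was removed, none of the PDGF and Notch calls in F-PRT held. Counts of Pdgfa and Notch1 were whole in 0 of 11 libraries, so reads were shared with other annotated genes.

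**Figure D5:**
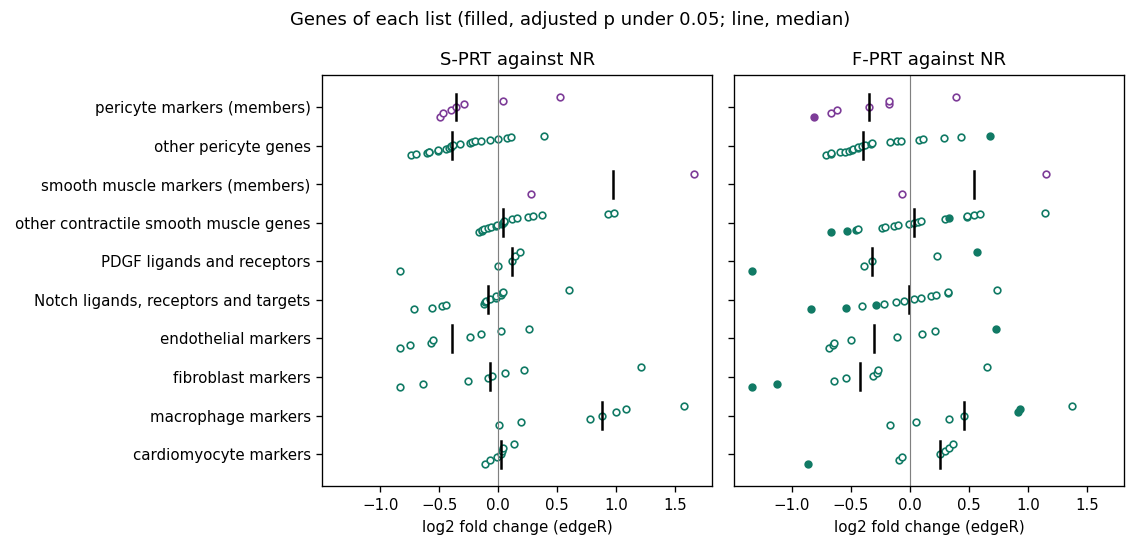
The log2 fold change against NR from edgeR for the genes of each list in S-PRT (left) and F-PRT (right); points are genes, filled at an adjusted p under 0.05, and the black line is the median of the list. The pericyte lists have medians of −0.39 to −0.35 in both, the macrophage list lies mostly above 0, and the smooth muscle lists spread to both sides.

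Markers of other cell types were read beside these values; in S-PRT unpaired, 0 of the endothelial, fibroblast, macrophage and glial markers passed. The summed level of 8 endothelial markers was 376.6 to 595.0 CPM (NR), 296.0 to 404.3 CPM (S-PRT) and 277.7 to 531.5 CPM (F-PRT). Its median log2 fold change of −0.39 in S-PRT and −0.31 in F-PRT was close to that of the pericyte markers, and Egfl7 rose in F-PRT (0.73, edgeR adjusted p = 0.013). With the block, Cdh5, Kdr and Tie1 fell in S-PRT, by 0.54, 0.72 and 0.82 (adjusted p-values 0.006, 0.0044 and 0.0021). Fibroblast markers summed to 820.1 to 1570.0 CPM (NR), 935.3 to 1064.0 CPM (S-PRT) and 449.0 to 1107.0 CPM (F-PRT), where Pdgfra and Gsn fell (Gsn by 1.13, adjusted p = 0.03). In S-PRT with the block, Postn rose by 1.06 and Pdgfra fell by 0.80 (edgeR adjusted p-values 0.014 and 0.021).

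Macrophage markers summed to 79.69 to 134.6 CPM (NR), 123.3 to 259.5 CPM (S-PRT) and 108.7 to 205.8 CPM (F-PRT). In F-PRT, C1qa and C1qb rose (0.91 and 0.93, edgeR adjusted p-values 0.045 and 0.046), as did 10.8% of all genes. Neither call held without the length trend or when any 1 NR library was left out. In S-PRT with the block 5 of these 7 markers rose, as did 6.57% of all genes. The 4 proliferation markers summed to 2.205 to 5.837 CPM (NR), 8.777 to 17.5 CPM (S-PRT) and 7.841 to 14.43 CPM (F-PRT). In S-PRT, Cdk1 and Ccnb1 rose by 1.59 and 2.2 (edgeR adjusted p-values 0.037 and 0.039), where 0.872% of all genes rose. DESeq2 called all 4 in S-PRT. Without the length trend and with limma on TPM 0 of the 4 were called there, where 44 and 2 of all genes were. In F-PRT, Cdk1, Ccnb1 and Mki67 rose (Mki67 by 1.18, edgeR adjusted p = 0.04). Schwann and glial markers summed to 12.71 to 21.04 CPM (NR), 11.70 to 14.74 CPM (S-PRT) and 10.10 to 16.29 CPM (F-PRT), where Scn7a fell (−0.54, adjusted p = 0.038). Of these lists, Kcna1, a Schwann and glial marker, was at 0 in F-PRT replicate 2, and no list had a gene at 0 in all libraries of a group. The part of these cell types in the values of the mural markers was not tested.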

How the data were processed

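Poly(A)+ RNA of the heart apex was sequenced from 11 libraries in 3 groups, grouped by the treatment named in the labels; per the labels' protocols, a directional library kit was used. The authors deposited, per library, expected counts per gene, TPM, and each gene's abundance-weighted mean transcript length in bases, per the file headers, which have the layout that RSEM writes. The submitters' processing notes name FastQC, cutadapt, STAR, RSEM and edgeR without versions, and both GRCm39 and mm10; neither they nor the file headers state the strand setting of the counting. Of the identifiers, 52081 had a symbol, and 99.7% of 31330 single-transcript genes had the length given in GENCODE M21.

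Expected counts were rounded, filtered with filterByExpr (minimum count 10, minimum total 15) and fitted over all 11 libraries in 1 model with edgeR 4.0.16 (TMM scaling, quasi-likelihood test, 8 residual degrees of freedom) in R 4.3.3, with Benjamini-Hochberg adjustment over 14556 genes. CPM were computed from the deposited expected counts with TMM factors and are not per length, whereas the deposited TPM are. Fold changes are on the log2 scale, and TPM were tested as log2(TPM + 1). The averaged comparison weights S-PRT and F-PRT equally. Counts of 7 markers were whole in every library (tolerance 1e-09), Abcc9 in 10 of 11 and Notch3 in 0 of 11.

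Alternatives were DESeq2 1.42.0 size factors, library totals alone, no filter, the DESeq2 test, limma 3.58.1 on TPM, removal of the trend on transcript length, 1 surrogate variable (sva 3.50.0), a replicate block, a fit of only the groups compared, and leaving out each library. NR and S-PRT share replicate numbers in the labels, and deviations from the group means over 11107 genes correlated within 4 of 4 same-number pairs (r = 0.184 to 0.363), every pair over 0.1, so these numbers were taken to pair the samples and blocked values are given. Libraries of different numbers also correlated where both were numbered 1 or 2 (0.167 and 0.443) or 3 or 4 (0.354 and 0.369). Of these, 0.443 and 0.369 exceeded every same-number pair, so the number is not the only link and the pairing remains an assumption. NR and F-PRT (-0.446 to 0.233, 1 of 3 over 0.1) and S-PRT and F-PRT (-0.389 to -0.156, 0 of 3) were not paired.

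The genes named are all 9 markers, up to 4 called genes per list with the smallest p (or, where none passed, 2), and the 5 genes with the highest Pearson correlation with the mean centred log2 CPM of the pericyte or the smooth muscle markers. Markers and lists were chosen with earlier results of these data known. The scripts were tested on simulated data. The values of 1 gene of the lists are not reported here.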

Additional observations from a re-analysis of the deposited data

Results flagged for a closer look

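Within NR and S-PRT, 60 groups of 4 libraries (30 named genes) were checked for a library that stood apart, by the gap to its nearest neighbour over the range of the group (Dixon's test, critical value 0.829); 8 were found, where chance alone gives about 5% of groups. F-PRT, with 3 libraries, was not checked. Among the markers, Abcc9 was high in NR replicate 2, at 8.08 log2 CPM beside 7.84 to 7.88 in the other NR libraries, and high in S-PRT replicate 4, at 7.81 beside 7.54 to 7.58. Cnn1 was high in S-PRT replicate 3, at 1.28 beside -1.29 to -0.86, and Kcnj8 was low in S-PRT replicate 1, at 4.23 beside 4.58 to 4.64. Of the other named genes, Gsn was low in NR replicate 2 (9.08 beside 9.96 to 10.03), as was Scn7a (3.31 beside 3.89 to 3.97). Notch1 was high in NR replicate 4 (4.48 beside 4.33 to 4.35) and Ppp1r12b low in S-PRT replicate 3 (7.59 beside 7.72 to 7.73).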

How the results depend on the processing

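The number of genes called depended strongly on the setting. In S-PRT against NR, 188 became 463 with 1 surrogate variable, 697 with DESeq2, 605 without the filter, 583 with only the groups compared, 44 without the length trend, 14 with library totals alone and 2 with limma on TPM, and 26 to 447 when libraries were left out. In F-PRT against NR, 2841 became 511 without the length trend, 134 with library totals and 71 with limma on TPM, and 1391 to 3801 when libraries were left out. In F-PRT against S-PRT, 0 became 168 with DESeq2, 71 without the filter, 9 with limma, 7 with 1 surrogate variable and 3 with size factors, and 0 to 104. Averaged over both groups, 2118 became 428 without the length trend, 213 with library totals (78 higher and 135 lower, against 1186 and 932) and 33 with limma, and 516 to 3270. Library totals moved the median of all genes by -0.14 in S-PRT and 0.19 between dose rates, and limma on TPM by -0.14 and 0.13.

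With the replicate block, the paired comparison of S-PRT with NR gave 1426 calls. F-PRT numbers were not paired, and there the block left 29 calls against NR, without Abcc9 (-0.88, adjusted p = 0.11), and 910 averaged.

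Abcc9 in F-PRT was negative in all 20 settings (-1.08 to -0.47) and called in 18, the exceptions being limma on TPM and the block, and Pdgfrb was called there in 4 settings and Notch3 in 5. Signs reversed as follows. Under limma on TPM they were Cspg4 0.19 in F-PRT, 0.18 between dose rates and 0.1 averaged; Myh11 -0.04 in S-PRT and -0.05 averaged; and, between dose rates, Mcam 0.05, Notch3 0.14 and Pdgfrb 0.05. Without the length trend they were Cspg4 0.07 in F-PRT and 0.1 averaged, Myh11 0.28 and Rgs5 0.03 in F-PRT, and Pdgfrb 0.06 between dose rates. With 1 surrogate variable they were Cspg4 -0.19 and Myh11 -0.25 in S-PRT, Myh11 -0.29 averaged and Mcam 0.05 between dose rates. With library totals they were Cspg4 -0.09 in S-PRT, and Mcam 0.07 and Pdgfrb 0.04 between dose rates. With the block they were Kcnj8 -0.09 between dose rates and Myh11 -0.05 averaged. Leaving out libraries also reversed some: Cspg4 (-0.11 to 0.14) and Myh11 (-0.35 to 0.52) in S-PRT; Cnn1 (-0.04 to 1.58), Myh11 (-0.23 to 0.02), Abcc8 (-0.09 to 0.16) and Kcnj11 (-0.26 to 0.02) in F-PRT; Myh11 averaged (-0.24 to 0.23); and, between dose rates, Cnn1 (-1.70 to 0.61), Myh11 (-0.58 to 0.23), Pdgfrb (-0.36 to 0.03), Rgs5 (-0.02 to 0.47), Kcnj8 (-0.28 to 0.22) and Mcam (-0.32 to 0.12). The cause was not tested. Of the 19 other genes named as called in F-PRT, 19 kept the call with 1 surrogate variable, 18 with size factors or DESeq2, 17 without the filter, 10 with only the groups compared, 2 without the length trend (Des and Mki67), 0 with the block, 1 with library totals or limma (Ryr2), and 6 to 18 when libraries were left out.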
